A study of Mus musculus with 18 samples.

Results

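tRNA-Ile-TAT is the isoleucine tRNA family whose anticodon, UAU, reads the AUA codon. All rows named for it in the deposited table of mouse hippocampal small RNA were taken. They held 3 mature isodecoders (tRNAs of one anticodon that differ in the body of the molecule) of the 213 in the table and 4 precursor loci of 335. Together these made 24 of its 3574 rows. The loci were tRNA-Ile-TAT-1-1, which encodes isodecoder 1, and tRNA-Ile-TAT-2-1, 2-2 and 2-3, which encode isodecoder 2. Isodecoder 3 had mature rows but no locus row. Another 3 rows, for the antisense strand, held 0 reads and were left out. No sequences of these tRNAs or their introns were used here.

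A tRNA gene is transcribed by RNA polymerase III as a precursor with a leader and a trailer, and a small class of tRNA genes, to which tRNA-Ile-TAT belongs, also carries an intron beside the anticodon. The TSEN endonuclease cuts the intron out, and the tRNA ligase complex, with RTCB as its catalytic subunit, joins the exons. Most isoleucine codons are read by the tRNA-Ile-AAT family, whose genes have no intron.

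The study asked whether RTP801 (encoded by Ddit4), a stress-induced protein, affects the splicing of intron-containing tRNAs in a mouse model of Alzheimer's disease. Each library came from the dorsal hippocampus of 1 male mouse, either wild type (WT) or 5xFAD, a transgenic line on the B6SJL background whose transgenes are driven in neurons by the Thy1 promoter. At 6 months of age all mice, controls included, received an adeno-associated virus (rAAV2/8) directed to neurons in CA1 and the dentate gyrus of both hemispheres, and they were killed 4 weeks later. The virus carried a control hairpin (shCT) or one against RTP801 (shRTP801), and a GFP cassette. There were 9 WT mice, of which 5 received the control hairpin (WT shCT) and 4 the other (WT shRTP801), and 9 5xFAD mice, of which 3 formed 5xFAD shCT and 6 formed 5xFAD shRTP801. The dissected tissue also held glia and cells the virus did not reach, so fewer cells of a type and less RNA per cell cannot be told apart. The level of RTP801 itself was not analysed here. The study reports a partial knockdown, with no significant effect of treatment on RTP801 protein or Ddit4 mRNA. P-values measure the spread between mice.

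Across the 18 libraries there were 9850676 to 20292469 mature tRNA reads and 47875 to 318628 precursor reads. The libraries of WT shCT mouse 5, WT shRTP801 mouse 4 and 5xFAD shRTP801 mouse 7 stood apart. They held 624, 79078 and 6013 reads of mitochondrial tRNA, against at least 1556419 in each of the other 15. They also held 0 reads of Snord116l1, a copy of a small nucleolar RNA (snoRNA) abundant in brain, against 9 to 660 in the others, although its near-identical copies can share reads. Their precursor reads, at 228426, 179658 and 318628, were the most of all libraries, against at most 130675 in the other 15. None of these libraries was in the 5xFAD shCT group. Some values that rest on them are also given without them.

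Levels are given as a percent of a library's precursor reads for loci, and of its mature tRNA reads for isodecoders. On that scale tRNA-Ile-TAT precursors made 0.575% of precursor reads on average, place 22 of 48 families, while mature tRNA-Ile-TAT made 0.0452% of mature reads, place 46 of 50. Of the loci, tRNA-Ile-TAT-2-1 had the highest mean, 0.378%, place 67 of 335. tRNA-Ile-TAT-2-3 (0.0951%, place 131) and tRNA-Ile-TAT-1-1 (0.0889%, place 134) lay close together. tRNA-Ile-TAT-2-2, at 0.0134%, was in place 241. All 4 loci passed the filter on low values, as did isodecoders 1 and 2. Isodecoder 3 did not.

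Precursor reads of the family were partial in nearly every case, meaning that they covered part of the precursor. No read was of the whole precursor, and 7 reads of trailer sequence, all from tRNA-Ile-TAT-2-1, were found in 3 libraries. The deposited table counts reads without their positions, so partial reads that held the intron and those that held only the leader cannot be told apart.

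tRNA-Ile-TAT-1-1 is the sole precursor of isodecoder 1. In WT shCT it made 0.0328%, 0.00569%, 0.0766%, 0.00459% and 0.267% of precursor reads in mice 3, 5, 6, 11 and 15. In WT shRTP801 the values were 0.000557% (1 read), 0.0748%, 0.0664% and 0.106% in mice 4, 10, 17 and 21. Mouse 15 was high among the WT shCT mice, and mouse 4, from a library that stood apart, was the lowest of all. In 5xFAD shCT it made 0.269%, 0.234% and 0.109% in mice 1, 16 and 18. In 5xFAD shRTP801 the lowest value was 0.00314%, in the library of mouse 7 that stood apart, the median 0.0647% and the highest 0.107%. All 6 mice of 5xFAD shRTP801 thus lay below all 3 of 5xFAD shCT, by a margin narrower than the counting error of the 2 nearest mice. The other groups that differ in genotype alone or in hairpin alone overlapped.

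tRNA-Ile-TAT-2-1 was the most variable locus. In WT shCT it made 0.0985%, 0.00700%, 0.321%, 0.0138% and 1.01% in mice 3, 5, 6, 11 and 15. In WT shRTP801 it made 0.00390%, 0.531%, 0.112% and 0.449% in mice 4, 10, 17 and 21. As for tRNA-Ile-TAT-1-1, mouse 15 was the highest WT mouse and mouse 4 the lowest of its group. In 5xFAD shCT it made 1.16%, 0.974% and 0.241% in mice 1, 16 and 18. In 5xFAD shRTP801 it ran from 0.00220% over a median of 0.288% to 0.768%. Every pair of groups overlapped.

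**Figure D1:**
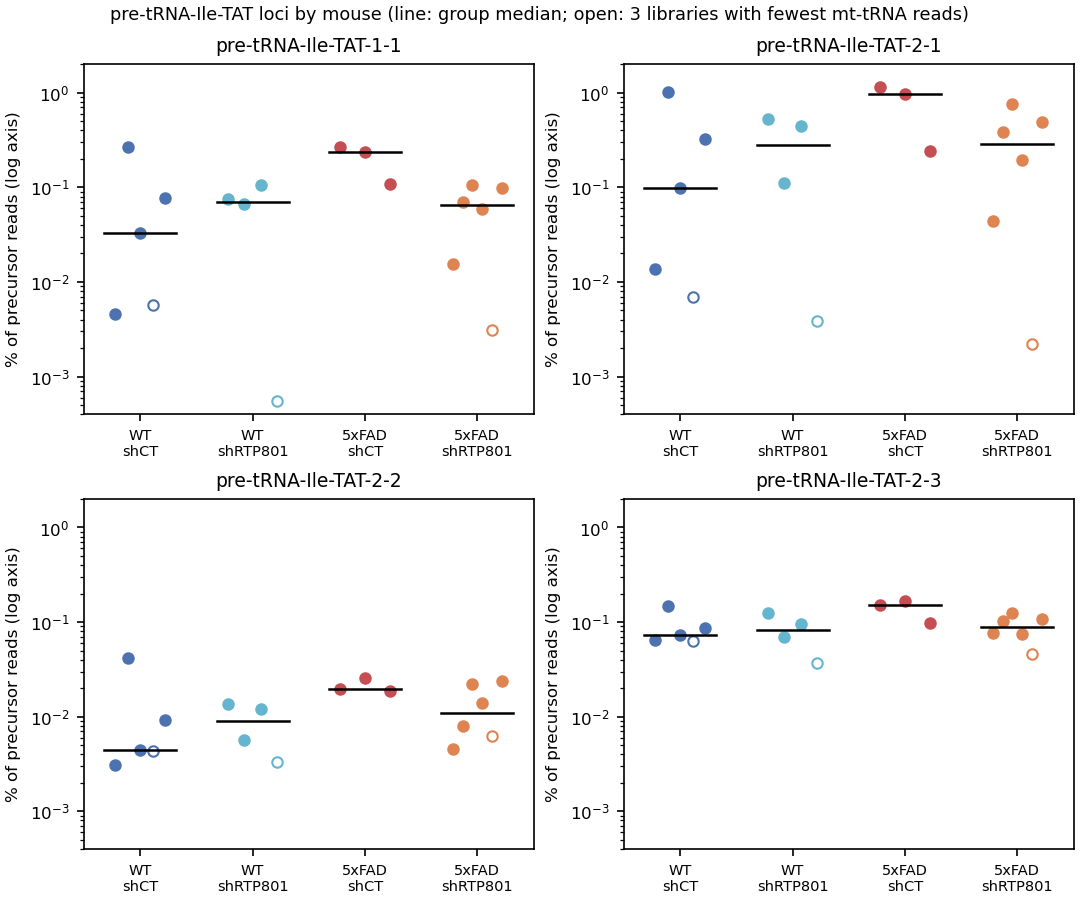
Percent of each library's precursor tRNA reads (log axis) from each of the 4 tRNA-Ile-TAT loci, 1 point per mouse, by group, with a line at the group median and open points for the 3 libraries with the fewest mitochondrial tRNA reads. tRNA-Ile-TAT-1-1 and tRNA-Ile-TAT-2-1 spread far more between mice than tRNA-Ile-TAT-2-3, with SDs of 2.19, 2.76 and 0.58 on the log2 scale.

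The other loci of isodecoder 2 varied less. tRNA-Ile-TAT-2-3 ran from 0.0630% to 0.146% in WT shCT, 0.0373% to 0.124% in WT shRTP801, 0.0972% to 0.167% in 5xFAD shCT and 0.0458% to 0.125% in 5xFAD shRTP801, on 48 to 146 reads per library. tRNA-Ile-TAT-2-2 had 3 to 20 reads per library, so its values carry wide counting error. It ran from 0.00306% to 0.0418%, 0.00334% to 0.0138%, 0.0189% to 0.0256% and 0.00457% to 0.0240% in the same order of groups. For both loci, groups that differ in genotype alone or in hairpin alone overlapped.

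The spread between mice differed among loci, also among those that encode the same isodecoder. The highest library of tRNA-Ile-TAT-2-1 was 527-fold above its lowest, and the SD of its log2 percent over the 18 mice, 2.76, was the largest of the 333 loci tested. For tRNA-Ile-TAT-1-1 the range was 483-fold and the SD 2.19, and 6 loci had a larger one. The lowest libraries were those of 5xFAD shRTP801 mouse 7 for tRNA-Ile-TAT-2-1 and WT shRTP801 mouse 4 (1 read) for tRNA-Ile-TAT-1-1. Both libraries stood apart, so these ranges and SDs rest in part on them. The SD of tRNA-Ile-TAT-2-2 was 1.02, close to the median locus at 0.95, and that of tRNA-Ile-TAT-2-3 was 0.58, with 286 loci above it. The highest and lowest libraries of these loci were 13.6-fold and 4.49-fold apart. All 4 loci nonetheless ranked the mice in much the same order: Spearman's rho between pairs of loci ran from 0.86 to 0.97 over 18 mice and from 0.85 to 0.95 over the 15 without the libraries that stood apart. These correlations are a description. The loci of a library share its depth and its precursor total, and near-identical loci may share reads.

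Because the loci differed in spread, the make-up of the family differed between mice. Of all 6682 tRNA-Ile-TAT precursor reads, tRNA-Ile-TAT-2-1 gave 61.5%, tRNA-Ile-TAT-2-3 20.98%, tRNA-Ile-TAT-1-1 14.8% and tRNA-Ile-TAT-2-2 2.65%. tRNA-Ile-TAT-2-1 led in 13 mice and tRNA-Ile-TAT-2-3 in the other 5, which were WT shCT mice 5 and 11, WT shRTP801 mouse 4, and 5xFAD shRTP801 mice 7 and 12. Those included the 3 libraries that stood apart, and in all 5 the whole family was low, at 0.0451% to 0.140% of precursor reads against at least 0.209% in the other 13 mice. The share of tRNA-Ile-TAT-2-3 ran from 9.59% to 82.7% and that of tRNA-Ile-TAT-2-1 from 3.83% to 75.2%. In 5xFAD shCT tRNA-Ile-TAT-2-1 led in all 3 mice, with 51.7% to 72.4%.

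**Figure D2:**
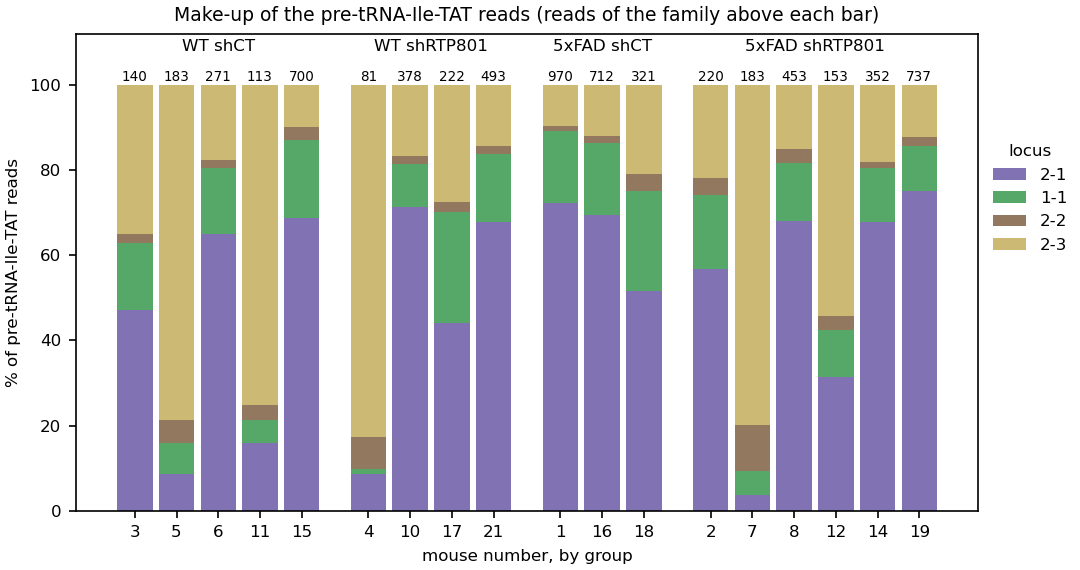
Make-up of each mouse's tRNA-Ile-TAT precursor reads, as a percent from each of the 4 loci, with 1 bar per mouse in the 4 groups. tRNA-Ile-TAT-2-1 is the largest segment in 13 mice and tRNA-Ile-TAT-2-3 in 5.

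Mature tRNA-Ile-TAT varied less between mice than its precursors. Isodecoder 2 made 0.0361% of mature reads on average and isodecoder 1 0.00903%, and their ratio was 4.13 ± 0.58 (SD, n = 18), with a range of 3.09 to 5.56. Over the 15 mice without the libraries that stood apart the ratio was 3.94 ± 0.35 (SD), with a highest value of 4.57. Isodecoder 1 made 0.00887% ± 0.00187 in WT shCT (n = 5), 0.00754% ± 0.00218 in WT shRTP801 (n = 4), 0.00824% ± 0.000411 in 5xFAD shCT (n = 3) and 0.0106% ± 0.00506 in 5xFAD shRTP801 (n = 6), all SD. Isodecoder 2 made 0.0364% ± 0.00489, 0.0325% ± 0.00702, 0.0330% ± 0.00212 and 0.0397% ± 0.0167 in the same order. The groups overlapped for both. The SD of the log2 percent over mice was 0.44 for isodecoder 1 and 0.35 for isodecoder 2, against a median of 0.63 over all isodecoders tested. Both isodecoders ranked the mice alike (rho = 0.90), whereas a locus and its own isodecoder had a rho of only 0.08 to 0.38 over 18 mice and of -0.24 to -0.0036 over the 15.

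Isodecoder 3 had 5 to 19 reads per library, 217 in all, of which 160 were 5′ reads. It made 0.0000825% of mature reads on average. In 5xFAD shCT its 12 to 17 reads made 0.272% to 0.290% of mature tRNA-Ile-TAT reads, against 0.110% to 0.177% in WT shCT, 0.154% to 0.246% in WT shRTP801 and 0.0830% to 0.256% in 5xFAD shRTP801. The 5xFAD shCT mice were the highest on that scale, but as a percent of all mature reads they overlapped both shRTP801 groups. These shares rest on few reads of an isodecoder that did not pass the filter on low values, and no test was run on them. How often isodecoders of other families separate on such a scale was not counted.

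Hydrolysed tRNA is read as fragments, which the authors sorted into whole, 5′, 3′ and other reads by the ends they reach. For isodecoders 1 and 2 most were 3′ reads. Isodecoder 1 had 84.5% ± 4.15 (SD, n = 18) 3′ reads and isodecoder 2 92.3% ± 1.77. The median of 186 isodecoders was 91.6%, with 105 above isodecoder 1 and 86 above isodecoder 2. The share was lower for isodecoder 1 in 18 of 18 mice (exact paired permutation test, two-sided p = 7.63e-06, the smallest it can give). The remainder were mostly other reads, at 14.9% ± 4.15 and 7.58% ± 1.81, again with isodecoder 1 the higher in 18 of 18. Whole reads numbered 8 for each isodecoder over all libraries.

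The 5′ reads of these isodecoders were few and not independent. Each had 0 to 16 per library, the 2 counts were equal in 14 of 18 libraries, and elsewhere they differed by at most 1 read. Reads that match both isodecoders cannot be told apart here. In 5xFAD shCT isodecoder 2 had 8, 15 and 4 of them in mice 1, 16 and 18, and in WT shCT 1, 1, 5, 1 and 8 in mice 3, 5, 6, 11 and 15. In WT shRTP801 it had 0, 7, 7 and 16, and in 5xFAD shRTP801 0 to 7. These counts overlapped between all groups. As a share of its own mature reads, 5′ reads of isodecoder 1 made 0.592% to 1.43% in 5xFAD shCT and 0% to 0.486% in 5xFAD shRTP801, which did not overlap, as was so in this direction for 4.84% of 186 isodecoders. For isodecoder 2 the shares of these groups overlapped. The test of the difference between the hairpin effects in the 2 genotypes, on the log2 odds of a 5′ read, gave -3.28 for isodecoder 1 and -3.10 for isodecoder 2, both with a limma adjusted p of 0.773 over 744 read-type values, of which 0% passed.

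**Figure D3:**
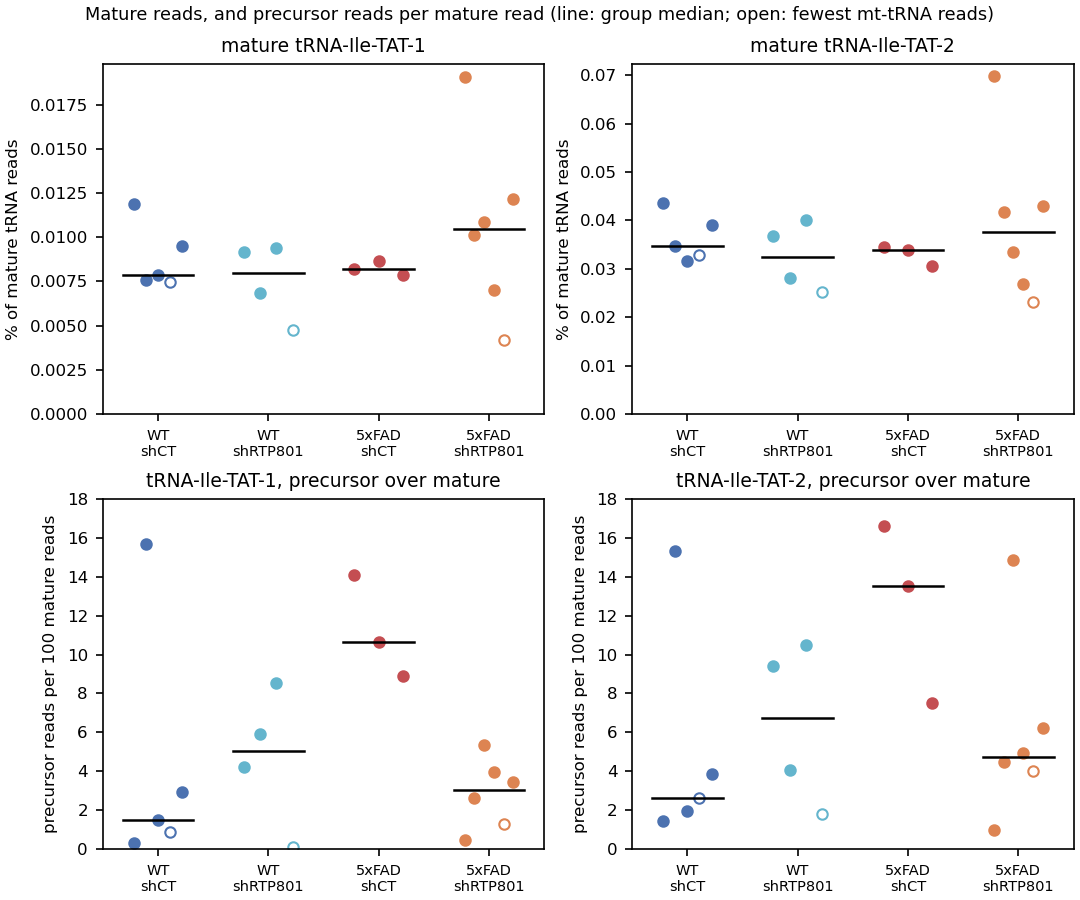
Mature isodecoders 1 and 2 as a percent of mature tRNA reads, and precursor reads per 100 mature reads of the same isodecoder, 1 point per mouse by group, with a line at the group median and open points for the libraries with the fewest mitochondrial tRNA reads. Mature levels overlap in all groups, while for isodecoder 1 the precursor ratio of the 3 5xFAD shCT mice (8.89 to 14.1) lies above that of the 6 5xFAD shRTP801 mice (0.440 to 5.35).

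Set against its own mature reads, tRNA-Ile-TAT was rich in precursor reads. Isodecoder 1 had a median of 3.72 precursor reads per 100 mature reads and isodecoder 2 of 4.71, against 0.335 for the median of 138 isodecoders. Of those 138, 4 lay above isodecoder 1 and 3 above isodecoder 2. Other families also made a larger mean percent of precursor reads than of mature reads. These were 0.385% and 0.0414% for tRNA-Tyr-GTA, 0.400% and 0.102% for tRNA-Leu-CAA, and 0.712% and 0.405% for tRNA-Ile-AAT. tRNA-Arg-TCT did not, at 0.0615% and 0.118%. The ratio of isodecoder 1 was lower than that of isodecoder 2 in 15 of 18 mice, with a mean difference of -1.85 (exact paired permutation test, two-sided p = 0.00182). Precursor and mature reads come from the same hydrolysed libraries, but their positions in the molecule are not given. The ratio thus compares reads and not molecules.

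By group the ratio followed the precursors. For isodecoder 1 it was 8.89 to 14.1 in 5xFAD shCT, 0.440 to 5.35 in 5xFAD shRTP801, 0.295 to 15.7 in WT shCT and 0.118 to 8.53 in WT shRTP801. The 5xFAD groups did not overlap, as was so for 3.62% of the 138 isodecoders in this direction. For isodecoder 2 it was 7.49 to 16.6, 0.959 to 14.8, 1.43 to 15.3 and 1.79 to 10.5 in the same order, and every pair overlapped.

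The comparison of 5xFAD shCT with WT shCT asks whether the disease model changes the family when RTP801 is left in place. All 4 precursor loci had a higher mean in 5xFAD shCT and none passed the test, and as a percent of all reads the mean of tRNA-Ile-TAT-2-3 was lower instead (log2 ratio of -0.78). The family made 1.60%, 1.40% and 0.466% of precursor reads in the 5xFAD shCT mice, and 0.209%, 0.0801%, 0.494%, 0.0865% and 1.46% in the WT shCT mice, so the groups overlapped: mouse 15 of WT shCT lay among the 5xFAD shCT mice. The fitted difference was 1.99 on the log2 scale (SE 1.10, limma with Benjamini-Hochberg adjustment, adjusted p = 0.328). Without mouse 15 it was 2.62 (adjusted p = 0.128), and without the libraries that stood apart 1.58.

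By locus, the log2 difference was 2.98 (SE 1.82) for tRNA-Ile-TAT-2-1, 2.65 (SE 1.41) for tRNA-Ile-TAT-1-1, 1.34 (SE 0.69) for tRNA-Ile-TAT-2-2 and 0.71 (SE 0.46) for tRNA-Ile-TAT-2-3, with limma adjusted p between 0.333 and 0.462 over 333 loci. Of those, 0% passed. The last turned to -0.26 on the deposited normalized values, which are scaled to all small RNAs. Without the libraries that stood apart the fitted differences were 2.13, 2.10, 1.17 and 0.61, in the same order. On plain means the loci were 2.73-fold, 2.63-fold, 1.70-fold and 1.60-fold higher, in the same order, with exact permutation p between 0.0714 and 0.464 and adjusted p between 0.432 and 0.729. Mouse 15 of WT shCT weighed on these ratios: without it they were 7.18, 6.81, 4.07 and 1.93, with exact permutation adjusted p of 0.250 to 0.261. All 3 mice of 5xFAD shCT lay above all WT shCT mice in 0 of 4 tRNA-Ile-TAT loci, against 6.91% of all loci, and below them in 0 of 4, against 3% of all loci. As a percent of all reads in the table tRNA-Ile-TAT-1-1 did lie wholly above (exact permutation p = 0.0357, adjusted p = 0.591), as did 1.2% of all loci on that scale. Mature isodecoders 1 and 2 differed by -0.08 and -0.13 (limma adjusted p = 0.887 and 0.788). The log2 precursor-to-mature ratio, centred on each library's median isodecoder, differed by 3.03 (SE 1.54) and 2.25 (SE 1.10). Both had a limma adjusted p of 0.299 over 138 isodecoders, of which 0% passed. Without mouse 15 these were 3.88 and 2.87 (adjusted p = 0.158).

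The comparison of 5xFAD shRTP801 with 5xFAD shCT asks what the hairpin against RTP801 does in the disease model. All 4 loci had a lower mean in 5xFAD shRTP801 and none passed the test after adjustment, and as a percent of all reads the means of tRNA-Ile-TAT-2-2 and 2-3 were higher instead (log2 ratios of 0.62 and 0.75). The family ran from 0.0574% over a median of 0.452% to 1.02% in 5xFAD shRTP801, against 0.466% to 1.60% in 5xFAD shCT, and the groups overlapped. The log2 difference was -1.64 (SE 1.07, limma adjusted p = 0.568), and without the libraries that stood apart -1.15.

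tRNA-Ile-TAT-1-1 was the one locus of the family on which these groups did not overlap. Its mean was 0.0590% ± 0.0425 (SD, n = 6) in 5xFAD shRTP801 and 0.204% ± 0.0841 (SD, n = 3) in 5xFAD shCT, a ratio of 0.289 (exact permutation test, two-sided p = 0.0119, the smallest that 6 mice against 3 allow, adjusted p = 0.330). Of all loci, 4.5% lay wholly below in this way, or 15 of 333, and 1.2% wholly above. Without the library of mouse 7 the groups were still apart (exact permutation p = 0.0179), and so they were as a percent of mature reads, but as a percent of all reads in the table they overlapped (exact permutation p = 0.0714). The model across all loci gave -2.32 (limma adjusted p = 0.611). The other loci had exact permutation p between 0.0595 and 0.167, and fitted differences of -2.36 for tRNA-Ile-TAT-2-1, -0.88 for tRNA-Ile-TAT-2-2 and -0.68 for tRNA-Ile-TAT-2-3, of which the last turned to 0.16 on the deposited normalized values. Mature isodecoders 1 and 2 differed by 0.20 and 0.17 (limma adjusted p = 0.955), and their centred log2 precursor-to-mature ratios by -2.71 and -1.81 (adjusted p = 0.474).

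Among WT mice shRTP801 moved the family by 0.11 (limma adjusted p = 0.956), and with shRTP801 in both genotypes 5xFAD differed from WT by 0.24 (adjusted p = 0.966). Both signs changed under other settings. The difference between the hairpin effects in 5xFAD and WT was -1.76 for the family (SE 1.47, limma adjusted p = 0.399) and -2.31, -2.74, -0.86 and -0.53 for tRNA-Ile-TAT-1-1, 2-1, 2-2 and 2-3 (adjusted p between 0.527 and 0.659). The hairpin effects were thus not shown to differ. All comparisons share control groups, so their values are not independent.

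**Figure D4:**
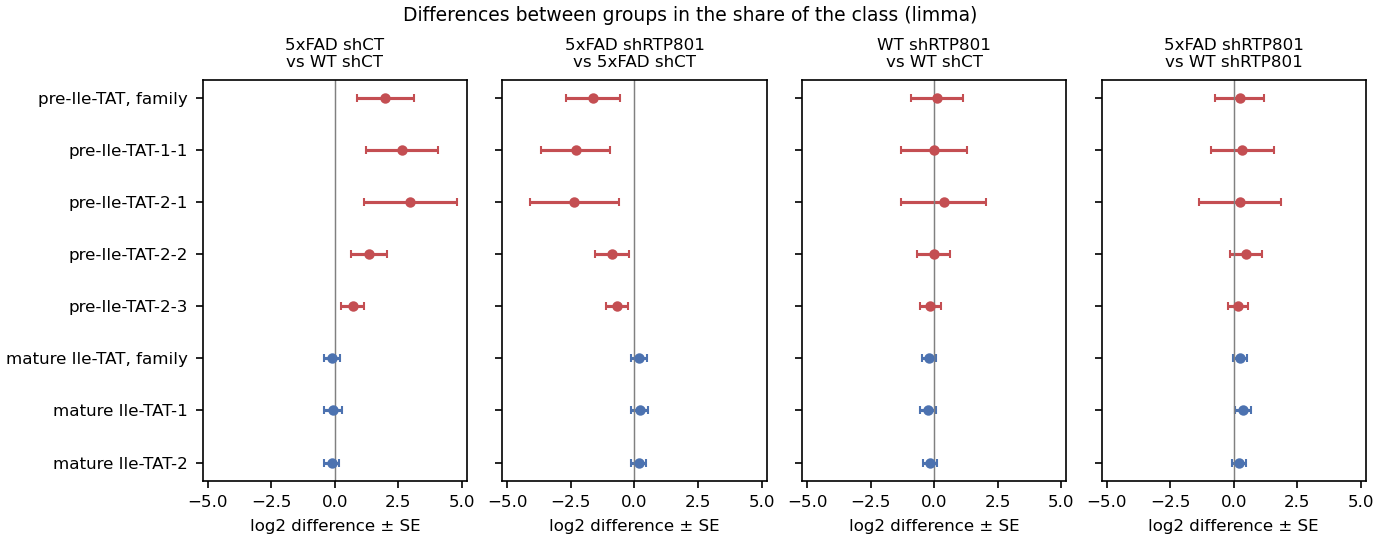
Fitted log2 differences (points) with their standard errors (bars) for the 4 tRNA-Ile-TAT loci, the family and isodecoders 1 and 2 in the comparisons between groups. Precursor differences are positive for 5xFAD shCT against WT shCT and negative for 5xFAD shRTP801 against 5xFAD shCT, except that tRNA-Ile-TAT-2-3 turns sign in both on the deposited normalized values and as a percent of all reads, as does tRNA-Ile-TAT-2-2 in the second on the latter, and none passed an adjusted p of 0.05.

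The same class of loci outside the family was compared from a list of 18 other intron-containing loci, of which 16 were in the table. None passed the limma test in any comparison. Their median log2 difference was 1.81 in 5xFAD shCT against WT shCT, beside 1.99 for the tRNA-Ile-TAT loci and 0.03 for all loci, and 13 of 16 were positive against 50.8% of all. In 5xFAD shRTP801 against 5xFAD shCT the medians were -1.66, -1.60 and -0.13. The 4 loci of tRNA-Leu-CAA had a median of 3.07 in the first comparison, the 3 of tRNA-Arg-TCT 1.60 and the 9 of tRNA-Tyr-GTA 0.19. The 10 loci of tRNA-Ile-AAT, which shares the amino acid but lacks the intron, had medians of -0.42 and 0.19 in the same comparisons. These medians are a description of lists.

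Across mice the tRNA-Ile-TAT precursor family was most like tRNA-Tyr-GTA (Spearman's rho = 0.91 over 18 mice, 0.89 over 15), tRNA-Arg-TCT (0.90 and 0.83) and tRNA-Lys-TTT (0.85 and 0.79), out of 47 families with a median rho of -0.14. The first pair hold intron-containing loci, although the study reports that not every tRNA-Arg-TCT locus has an intron. The last, tRNA-Lys-TTT, holds none. The single loci most like it were tRNA-Tyr-GTA-3-2 (0.93), tRNA-Ile-AAT-2-1 (0.92) and tRNA-Ser-AGA-2-2 (0.90). Mature isodecoders 1 and 2 were both most like tRNA-Met-CAT-5 (0.79 and 0.69 over 18 mice, 0.66 and 0.55 over 15). Next came tRNA-Lys-CTT-8 (0.75) and tRNA-Gln-TTG-1 (0.72) for isodecoder 1. For isodecoder 2 they were tRNA-Gln-CTG-5 (0.67) and tRNA-Val-CAC-4 (0.67), all over 18 mice.

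The precursors also moved with the snoRNA content of the library, as did those of some other families. Over the 15 mice without the libraries that stood apart, the family's rho with snoRNA content was 0.49, with 11 of 48 families higher and a median of 0.05. It was 0.72 for tRNA-Arg-TCT, 0.70 for tRNA-Tyr-GTA and 0.64 for tRNA-Leu-CAA, and -0.39 for tRNA-Ile-AAT. Libraries of 5xFAD shCT held 10.5 to 16.3 snoRNA reads per 100 mature tRNA reads, with a median of 12.7, against medians of 3.17 in WT shCT, 11.9 in WT shRTP801 and 2.71 in 5xFAD shRTP801. Mouse 15 of WT shCT, at 14.5, was the highest of its group, as it was for tRNA-Ile-TAT precursors. Over the same 15 mice, the log2 percent of tRNA-Ile-TAT-1-1 rose with log2 snoRNA reads per mature read (Pearson's r = 0.80, permutation test, adjusted p = 0.00276; Spearman's rho = 0.68, adjusted p = 0.0183, over 6 relations).

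For tRNA-Ile-TAT-2-1, 2-2 and 2-3 r was 0.71, 0.66 and 0.57 (permutation test, adjusted p = 0.00465, 0.00944 and 0.0276) and rho 0.49, 0.53 and 0.41 (adjusted p = 0.0768, 0.0708 and 0.126). Mature isodecoders 1 and 2 went the other way, with r of -0.76 and -0.72 (permutation test, adjusted p = 0.00327 and 0.00358) and rho of -0.70 and -0.58 (adjusted p = 0.0183 and 0.0522). Without the 2 mice of the most extreme snoRNA content, 5xFAD shRTP801 mouse 12 and WT shCT mouse 11, r was 0.53 for tRNA-Ile-TAT-1-1, 0.30 to 0.39 for the other loci, and -0.48 and -0.41 for the isodecoders, so the size of these relations rests in part on those mice. The 15 mice come from 4 groups that themselves differ in snoRNA content, and groups of 3 to 5 mice are too small for values within each. A fit with snoRNA content as a covariate was a setting chosen after the data were seen. It used all 18 mice and was not run over the 15. The libraries that stood apart held at most 0.0357 snoRNA reads per 100 mature tRNA reads, against at least 0.664 in the others. They can thus weigh heavily on this fit. In it the family difference was 0.71 for 5xFAD shCT against WT shCT (limma adjusted p = 0.634) and -0.62 for 5xFAD shRTP801 against 5xFAD shCT. The part of snoRNA content in the precursor differences was not tested.

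**Figure D5:**
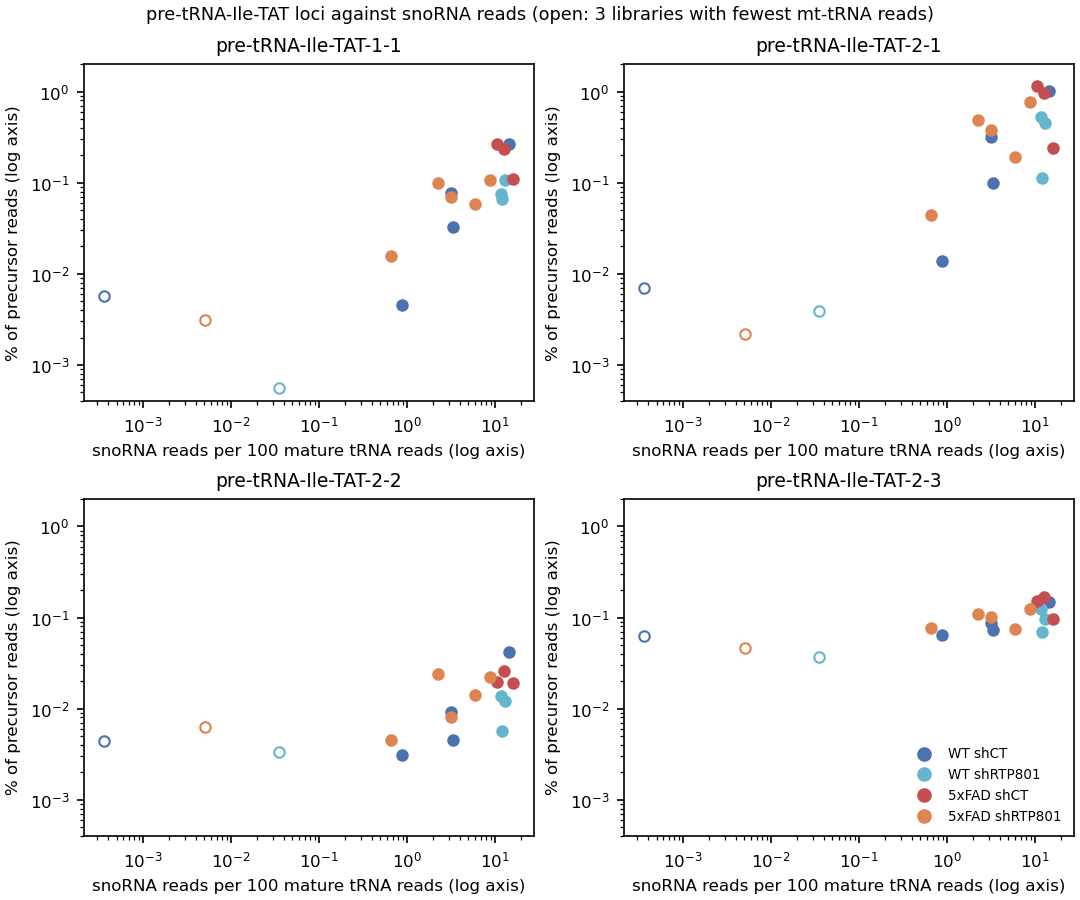
Percent of precursor reads from each of the 4 tRNA-Ile-TAT loci against snoRNA reads per 100 mature tRNA reads (both axes log), 1 point per mouse, coloured by group, with open points for the 3 libraries with the fewest mitochondrial tRNA reads. Over the 15 filled points the percent rises with snoRNA content, with r from 0.57 for tRNA-Ile-TAT-2-3 to 0.80 for tRNA-Ile-TAT-1-1.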

How the data were processed

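Hydro-tRNA-seq (alkaline hydrolysis of RNA of 60 to 100 nucleotides, paired-end sequencing) had been run on 18 libraries, 1 per mouse. Per the submitters' processing notes the authors used tRAX and build mm39; versions and the aligner are not given in the sources used here. The deposited values are a signal: read counts divided by a size factor per library. Dividing by the value of 1 read gave whole reads for all values (tolerance 0.001 reads). The count tools edgeR and DESeq2 were therefore run on recovered reads as alternatives.

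Mature reads (whole, 5′, 3′, other) and precursor reads (whole, partial, trailer) were summed per isodecoder or locus and given as a percent of the library's reads of that class. Features with a mean of at least 0.001% were tested on log2(percent + 0.001) with limma over all 4 groups, so fold changes of low features are understated. Read types (log2 odds) and precursor-to-mature ratios had 0.5 reads added. Single values were also compared by exact permutation tests, two-sided. Benjamini-Hochberg adjustment ran over all features of a class, with a threshold of 0.05. Wilson intervals (95%) and floors (3 reads) cover counting error only. Reads shared by near-identical isodecoders or loci could not be separated. Members, gene lists and tests were chosen with earlier results of these data known. All members were named, and the 3 features most like each were named by Spearman's rho. Scripts were tested on simulated data. Versions were Python 3.11.15, scipy 1.17.1, R 4.3.3, limma 3.58.1, edgeR 4.0.16 and DESeq2 1.42.0.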

Additional observations from a re-analysis of the deposited data

Results flagged for a closer look

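In groups of 4 to 10 mice, 5 of 39 sets of values held 1 mouse far from the others. Chance flags about 1 in 20 only where sets are independent and normally distributed. These sets share reads and span wide ranges, so their count cannot be set against that rate. WT shCT mouse 15 stood out in 4 of them. Its tRNA-Ile-TAT-1-1 precursor made 0.267% of precursor reads against 0.00459% to 0.0766% in the other 4 mice. Its tRNA-Ile-TAT-2-2 precursor made 0.0418% against 0.00306% to 0.00912%. It had 15.7 precursor reads per 100 mature reads of isodecoder 1 against 0.295 to 2.91, and 15.3 of isodecoder 2 against 1.43 to 3.87. The fifth was WT shRTP801 mouse 17, whose isodecoder 1 had 83.3% 3′ reads against 87.4% to 87.9% in the other 3 mice.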

How the results depend on the processing

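No tRNA-Ile-TAT value passed the threshold in any of the 1086 alternatives run on 44 values; the lowest adjusted p was 0.115 (limma, tRNA-Ile-TAT-2-2, 5xFAD shCT against WT shCT, without WT shCT mouse 15). The direction changed in 22. The cause was not tested. On the deposited normalized values tRNA-Ile-TAT-2-3 was at -0.26 for 5xFAD shCT against WT shCT, 0.16 for 5xFAD shRTP801 against 5xFAD shCT and 0.43 for the difference between hairpin effects (interaction). On them the interaction of tRNA-Ile-TAT-2-2 was 0.084 (0.022 with edgeR), and the family for WT shRTP801 against WT shCT -0.012. With snoRNA content as a covariate the last was -0.56 and the interactions of tRNA-Ile-TAT-1-1 and 2-1 were 0.066 and 0.48. As a percent of all reads, log2 ratios of means were -0.78 for tRNA-Ile-TAT-2-3 (5xFAD shCT against WT shCT), and 0.62 and 0.75 for tRNA-Ile-TAT-2-2 and 2-3 (5xFAD shRTP801 against 5xFAD shCT). Without the 3 libraries that stood apart the family was at -0.13 for 5xFAD shRTP801 against WT shRTP801.

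Leaving out 1 mouse at a time gave -0.36 to 0.98 for the family in WT shRTP801 against WT shCT (lowest without WT shRTP801 mouse 10) and -0.63 to 0.73 in 5xFAD shRTP801 against WT shRTP801 (lowest without WT shRTP801 mouse 4). It gave -0.13 to 0.025 for isodecoder 1 in 5xFAD shCT against WT shCT (-0.16 to 0.022 for the ratio of means) and -0.0080 to 0.30 for isodecoder 2 in 5xFAD shRTP801 against 5xFAD shCT.

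Counts of calls over all features were 0 by limma, with 52, 25, 34, 7 and 51 of 333 loci at an unadjusted p under 0.05 in 5xFAD shCT against WT shCT, 5xFAD shRTP801 against 5xFAD shCT, WT shRTP801 against WT shCT, 5xFAD shRTP801 against WT shRTP801 and the interaction. They rose above 0 in 10 of 799 alternatives, with none of the 44 tRNA-Ile-TAT values followed there among the calls. Loci, isodecoders and ratios of the family were not followed in WT shRTP801 against WT shCT or 5xFAD shRTP801 against WT shRTP801. Nor were its read types other than 5′ reads of isodecoder 2. DESeq2 called 1 isodecoder in WT shRTP801 against WT shCT, and edgeR 0. Without the 3 libraries, 8 read types passed in 5xFAD shRTP801 against 5xFAD shCT and 8 in the interaction, and 3 ratios in the interaction. Leaving out 1 mouse gave 0 to 2 families and 0 to 1 loci in 5xFAD shCT against WT shCT and 0 to 1 loci in WT shRTP801 against WT shCT (highest without WT shCT mouse 15), and 0 to 8 loci and 0 to 4 ratios in the interaction (highest without WT shRTP801 mouse 4). No paired analysis was possible because replicate numbers are mouse numbers and no number occurs in more than 1 group. With 3 mice in 5xFAD shCT and 3 to 20 reads per library for tRNA-Ile-TAT-2-2, precision was low.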
